A study of Mus musculus with 2 samples.

Results

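Genes for heat shock proteins, endoplasmic reticulum (ER) chaperones and transcription factors of ER stress were compared between kidney RNA of cystic and control mice. Below, "the cystic kidney" stands for the RNA of the cystic array. They were taken by gene symbol: the Hspa to Hsph and Hsp90 families, the J domain (Dnaja, Dnajb and Dnajc) families, the protein disulfide isomerases, Calr, Canx, Hyou1, Herpud1, Sdf2l1, Creld2, and the factors Ddit3, Xbp1, Atf4, Atf6 and Atf6b. This gave 209 probe sets for 89 genes, of 18193 genes that a probe set names alone. Perlecan, Hspg2, enters by its letters only and is a proteoglycan of basement membranes.

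Total RNA of whole kidney was hybridised to 1 Affymetrix array per group. The control array is from mice with wild-type alleles of Invs (+/+) that carry the inv-deltaC::GFP transgene, and the cystic array is from inv/inv mice with the same transgene, so a C-terminally truncated inversin fused to GFP is common to both groups. Inversin is a ciliary protein, and inv mice are a model of nephronophthisis type 2. All mice were 4 weeks old by the series' design text, and only the cystic array carries labels for age (28 days) and sex (female). The design text speaks of 2 kidneys, and whether their RNA was pooled, how many animals gave it and which promoter drives the transgene are not given in the sources used here. With 1 array per group there is no replicate check and no test, the number of arrays limits the precision, and all differences describe these 2 RNA samples.

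Values are linear MAS5 signals, and the log2 ratio is cystic minus control. A floor was set at the median signal of each array, 55.4 (control) and 61.9 (cystic). Genes below it on both arrays count as not measured, and a gene below it on 1 array has a ratio that is only a bound, taken against that floor. "Rose" and "fell" are used only for differences of at least 2-fold. The brightest Invs probe set read 118 in control and 15.9 in the cystic kidney. Against the female label, Xist, the RNA that coats the inactive X chromosome, read 387 in control and 57.4 in the cystic kidney, under the floor. The Y-linked genes Eif2s3y (132 and 142), Kdm5d (152 and 194) and Uty (206 and 198) were above the floor on both arrays. The control array thus had Xist and Y-linked signals together, and it has no sex label. Sex and genotype cannot be told apart here. Kidney markers were present: Slc34a1 of the proximal tubule read 8397 and 5093, and Umod of the loop of Henle 8713 and 8160.

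Heat shock proteins bind unfolded proteins and use cycles of ATP binding to refold them. J domain proteins deliver clients to Hsp70, Hsp90 completes the folding of kinases and receptors, and small heat shock proteins hold clients without ATP. Each compartment has its own set: Hspa8 and Hsp90aa1 in the cytosol, Hspa5 and Hsp90b1 in the ER, Hspa9 with the Hspd1 and Hspe1 chamber in the mitochondrion. Unfolded proteins in the ER activate Atf6, Xbp1 and Atf4, which raise ER chaperone transcription, and unfolded proteins in the cytosol activate heat shock factors.

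The compartments had different medians. All 7 chaperone genes assigned to the mitochondrion had lower signals in the cystic kidney, with a median log2 ratio of -0.68. The cytosolic and the ER members were centred near 0, with medians of 0.01 and 0.06, and the 5 stress transcription factors were all above 0, with a median of 0.51. Over all 12014 measured genes the median was 0.09, with 57.8% above 0 and 42.1% below. Of 78 measured members, 3 rose at least 2-fold: the small heat shock proteins Hspb1 and Hspb8, and Dnajc25. The J domain genes Dnajc12 and Dnajc6 fell at least 2-fold. Among all measured genes 7.06% rose and 3.78% fell by this limit, and the members' 3 and 2 of 78 do not stand above that background. The calls over all genes were 848 higher and 454 lower, or 609 and 672 with each array centred on its median, where Dnajc25 was not past the limit.

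**Figure D1:**
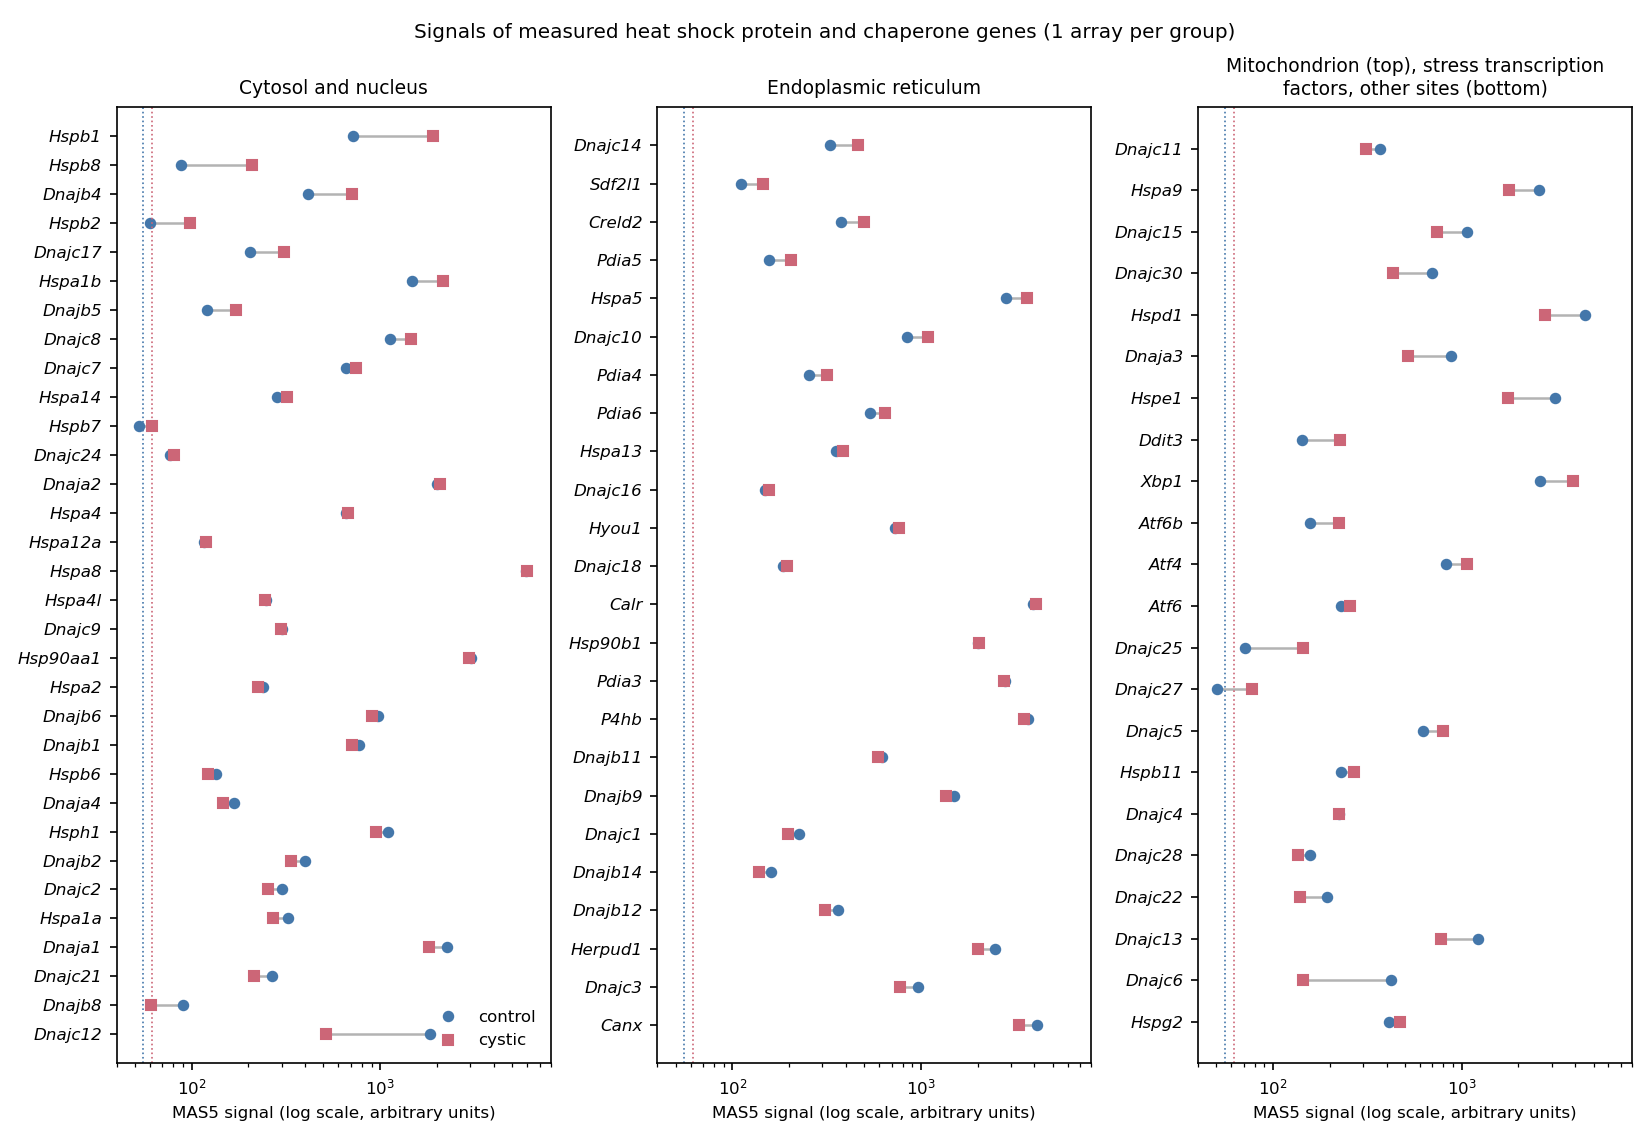
MAS5 signal of each of the 78 measured genes on a log axis in arbitrary units, 1 point for the control (circles) and 1 for the cystic array (squares), with dotted lines at the 2 floors. The squares of all 7 genes assigned to the mitochondrion lie left of the circles, while Hspb1 and Hspb8 lie furthest to the right of theirs.

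Promoter sequences are shown because the stress programmes of the cytosol and of the ER act through known DNA elements. RefSeq promoter windows (GRCm38.p6, 250 bases before to 50 after an annotated start) were found for 74 of the 89 genes and for 27025 genes in all. The ER stress element, CCAAT and CCACG with 9 bases between them, was searched on both strands. It was in the window of 7 of 23 ER members (30.4%) and of 37 of all 27025 genes (0.137%). No window of another compartment of the members held it. The sites are given on the strand of the gene, with the boxes in capitals, and a site that begins with CGTGG is in the reverse direction.
Hspa5, chr2:34771840-34772139, plus strand, 65 bases before the start: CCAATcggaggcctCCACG
Hsp90b1, chr10:86705395-86705694, minus strand, 212 bases before: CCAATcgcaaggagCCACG
Hsp90b1, same window, 107 bases before: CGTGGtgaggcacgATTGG
Calr, chr8:84846882-84847181, minus strand, 162 bases before: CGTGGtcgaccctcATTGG
Canx, chr11:50325624-50325923, minus strand, 145 bases before: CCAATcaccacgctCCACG
Creld2, chr15:88819396-88819695, plus strand, 126 bases before: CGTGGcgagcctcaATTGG
Dnajc3, chr14:118937682-118937981, plus strand, 105 bases before: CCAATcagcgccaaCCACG
Pdia6, chr12:17266339-17266638, plus strand, 98 bases before: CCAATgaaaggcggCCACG

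The window of Hspa5, which encodes the main ER Hsp70 (BiP), is printed whole to show where the element lies relative to the start, with the element in capitals.
Hspa5, chr2:34771840-34772139, plus strand: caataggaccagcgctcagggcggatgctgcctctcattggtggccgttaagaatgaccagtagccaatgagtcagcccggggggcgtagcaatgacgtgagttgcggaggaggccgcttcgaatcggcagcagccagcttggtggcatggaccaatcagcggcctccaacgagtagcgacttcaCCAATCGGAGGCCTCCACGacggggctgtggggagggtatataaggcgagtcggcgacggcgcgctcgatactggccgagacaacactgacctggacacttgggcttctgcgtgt

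The heat shock element was searched as 3 alternating units, GAA, TTC and GAA or the reverse order, with 2 bases between units. It was in the windows of 4 members (5.41% of 74), Hspd1, Hspe1, Dnajb6 and Hsph1, and of 179 genes in all (0.662%). Hspa1a, Hspa1b, Hspb1 and Dnajb1 had windows without a match, and Hspa8 and Hsp90aa1 had no window. Other forms of the element and sites outside the windows were not searched, so a missing match does not show that a gene lacks the element. Hspd1 and Hspe1 are divergent neighbours on chromosome 1, with annotated starts 216 bases apart, and their windows share 285 bases read on opposite strands. The matches in the pair are therefore the same bases, which hold 2 overlapping elements. The capitals in the Hspe1 window mark them. The match of Hsph1 begins 37 bases into the transcribed side of 1 window and 16 into that of another.
Hspe1, chr1:55087898-55088197, plus strand: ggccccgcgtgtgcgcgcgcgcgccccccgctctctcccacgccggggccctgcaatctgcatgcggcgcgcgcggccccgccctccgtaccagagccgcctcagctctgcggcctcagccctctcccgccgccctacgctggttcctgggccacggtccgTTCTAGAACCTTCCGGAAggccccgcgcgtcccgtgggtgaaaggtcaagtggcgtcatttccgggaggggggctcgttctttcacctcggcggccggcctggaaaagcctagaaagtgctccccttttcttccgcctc
Dnajb6, chr5:29735648-29735947, plus strand, 46 bases before the start: GAAtcTTCcgGAA
Hsph1, chr5:149636287-149636586, minus strand, after the start: TTCtgGAAagTTC

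The short UPR element TGACGTGG was in the window of 1 member, Dnajc25, 49 bases before the start, and of 193 genes in all (0.714%). The amino acid response element, TGATGNAAT or TGATGNAAC, was in that of Herpud1 and of 526 genes in all (1.95%). A match describes the letters of these windows and no binding was measured.

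The members assigned to the mitochondrion shared 1 sign. Hspd1, the subunit of the folding chamber, read 4489 in control and 2781 in the cystic kidney, 1.61-fold lower. Hspe1, its lid, read 3134 and 1765, 1.78-fold lower, and 503 and 429 at its other probe set, so the sizes of the 2 readings differ. The genes that share a promoter region thus had log2 ratios of -0.69 and -0.83 at their brightest probe sets.

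Hspa9, the mitochondrial Hsp70 (mortalin), read 2564 in control and 1784 in the cystic kidney, a log2 ratio of -0.52. Its other measured probe sets gave -0.53, -0.64 and -0.81. All 4 readings of this gene were thus lower in the cystic kidney. Dnaja3, a J protein partner of Hspa9, read 879 and 521, 1.69-fold lower. Dnajc30 read 693 and 432, Dnajc15, a J protein of the import motor, 1066 and 738, and Dnajc11, of the cristae organising complex, 369 and 312. Across the compartment 13 of 13 probe sets above both floors were below 0, from -0.83 to -0.20. None of the 7 genes passed 2-fold, and 4 of them were at least 1.5-fold lower, a limit that was added after the values were seen and that 10.8% of all measured genes met. Of all measured genes 42.1% had a log2 ratio below 0.

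**Figure D2:**
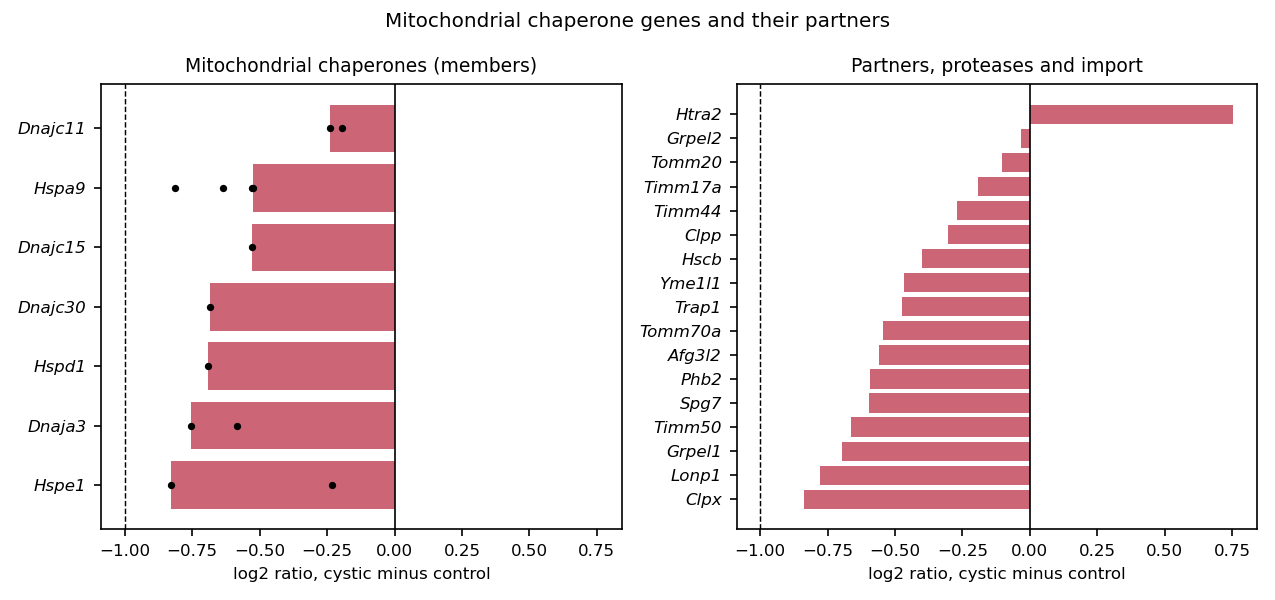
Log2 ratios (cystic minus control) of the mitochondrial chaperone genes, with each probe set above both floors as a black point, and of the list of partners, proteases and import genes. All 7 bars on the left and 16 of 17 on the right lie below 0, Htra2 being the exception, and none reaches the dashed 2-fold line.

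Most genes that work with these chaperones were also lower. Of 17 measured partners, proteases and import subunits 16 were below 0, none was past 2-fold, and the median was -0.48. The lowest were Clpx (719 to 402), the unfoldase of the matrix protease ClpXP, the matrix protease Lonp1 (466 to 272) and Grpel1 (1375 to 848), the nucleotide exchange factor of Hspa9. The intermembrane space protease Htra2 went the other way, 142 to 240, followed by Grpel2 and Tomm20, an import receptor, at -0.03 and -0.10. A further 3 probe sets name Dnajc19, a J protein of the import motor, together with its pseudogene and were not counted. The brightest read 1249 and 634, a log2 ratio of -0.98.

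Markers of the proximal tubule, a segment rich in mitochondria, moved with this group. All 13 measured of 14 listed markers were lower in the cystic kidney and 9 fell at least 2-fold, with a median of -1.15, led by Slc22a6 (1713 to 410) and Slc22a8 (2830 to 797). Their summed signal was 71268 in control and 38542 in the cystic kidney, a ratio of 0.541, and no marker was at 0. The summed signal of the 7 mitochondrial chaperones was 13194 and 8333, a ratio of 0.632. Of the 12 markers of later tubule segments 3 fell, as did 1 of 5 measured podocyte markers, while none of 8 endothelial markers passed 2-fold. The part of the marker changes in the chaperone difference was not tested. In whole tissue RNA, fewer cells of a type and less RNA per cell cannot be told apart.

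**Figure D3:**
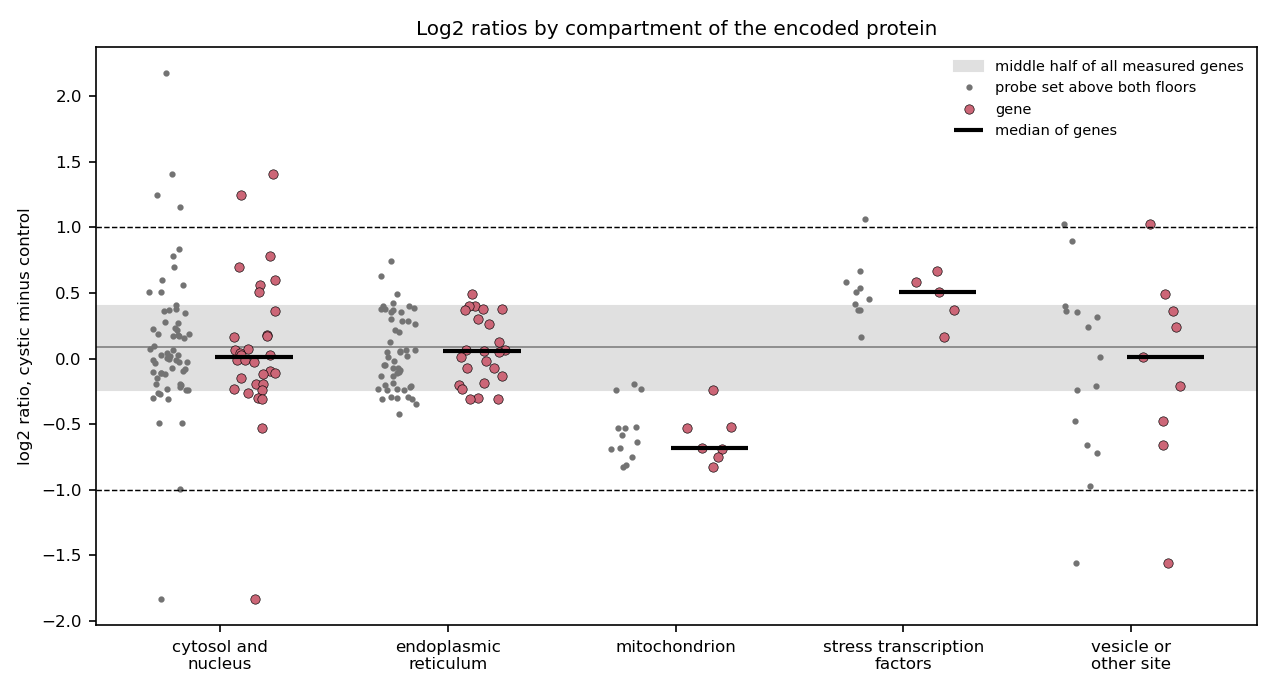
Log2 ratios by the compartment of the encoded protein, with probe sets above both floors as grey points, genes as circles and the median of the genes as a bar. The grey band is the interquartile range of all measured genes and the dashed lines mark 2-fold: the mitochondrial median lies at -0.68 and the cytosolic and ER medians at 0.01 and 0.06.

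Among cytosolic and nuclear members, 32 of 39 were measured, 2 rose and 1 fell, beside 7.06% and 3.78% of all measured genes. Their log2 ratios were above 0 in 16 and below 0 in 16. The difference of medians was -0.69 for mitochondrial minus cytosolic genes and 0.05 for ER minus cytosolic genes. The first kept its sign under all 9 alternative settings, from -0.71 to -0.45. The second was -0.04 when the median over probe sets was used, so its sign is not settled.

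Hspa8 and Hsp90aa1 had log2 ratios of 0.03 and -0.03 at their brightest probe sets. Hspa8, the constitutive cytosolic Hsp70, read 5914 in control and 6018 in the cystic kidney, and its 4 probe sets ranged from -0.27 to 0.03. Hsp90aa1, the inducible cytosolic Hsp90, read 3018 and 2959, with probe sets from -0.03 to 0.23. Hsp90ab1, which was also listed for the cytosol, was not among the members, so Hsp90aa1 is the only cytosolic Hsp90 here. The nucleotide exchange factors Hspa4 (659 and 678), Hspa4l (248 and 246) and Hsph1 (1095 and 956) were also within 0.20 of 0 on the log2 scale at their brightest probe sets.

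The stress-inducible Hsp70 genes gave mixed readings. Hspa1b read 1470 in control and 2165 in the cystic kidney, with 0.56 at this probe set and 0.37 and 0.22 at its others. Hspa1a read 326 and 272, a log2 ratio of -0.26. The pair are near-identical copies, and a probe for either can pick up the other, so neither value is certain by itself. The co-chaperone Dnajb1, the classical J protein of the heat shock response, read 772 and 713, and Hspa2 and Hspa14 had log2 ratios of -0.09 and 0.17. Hspa14 read 124 and 49.3, under the floor, at its other measured probe set. Hspa12a read 116 and 119 at its brightest and 160 and 80.1 at its other measured probe set, so its probe sets disagree.

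The small heat shock proteins held the largest increases. Hspb1 (Hsp27), which caps actin filaments and holds unfolded clients, rose from 718 to 1906, 2.66-fold higher, and from 276 to 1244 at its other probe set, a log2 ratio of 2.17. Hspb8, the partner of Bag3 in chaperone-assisted autophagy, rose from 88.3 to 210, 2.38-fold higher. Its other probe sets read 70.7 and 157, and 18.3 and 153, the latter a bound of 1.47. All 5 readings of these genes were past 2-fold in the same direction.

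No other small heat shock protein passed 2-fold. Hspb2 read 60.5 and 98.1, a log2 ratio of 0.70 close to the floor, and Hspb6 135 and 122. Hspb7 read 52.3 and 62.0, at the floor, and Hspb3 and Hspb9 were not measured. Hspb11, a subunit of the intraflagellar transport machinery, read 228 and 269. Outside the members, Cryab, the small heat shock protein alpha-B crystallin, read 751 and 1185, and Bag3 259 and 346.

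Markers of fibroblasts, myofibroblasts and smooth muscle and of macrophages moved with Hspb1 and Hspb8. All 10 measured of 12 fibroblast and muscle markers rose, with a median of 2.08 and a summed signal of 6605 in control and 29499 in the cystic kidney. Tagln rose from 164 to 2296 and Col1a1 from 548 to 3946, while Myh11 and Cnn1, which define mature smooth muscle, were not measured. Of 10 macrophage markers 8 rose, with a summed signal of 2123 and 10216, led by Lyz2 (148 to 2369) and C1qc (79.4 to 1133). Of 10 markers of skeletal and heart muscle, where Hspb2, Hspb3, Hspb6 and Hspb7 are abundant, only Ckm was measured, at 50.7 and 115.7, a bound. No marker of these lists was at 0. The part of these markers in the Hspb1 and Hspb8 differences was not tested.

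J domain genes went in both directions. Of 39 measured, 15 were above 0 and 24 below, with a median of -0.14. Dnajc12, whose human protein binds the aromatic amino acid hydroxylases, had the lowest log2 ratio of the members and fell from 1839 to 517, 3.56-fold lower, at its only probe set. Dnajc6, auxilin, which uncoats clathrin vesicles, fell from 423 to 144, 2.94-fold lower, and from 85.0 to 27.6 at the next brightest, a bound of -0.46. Dnajc25 rose from 70.7 to 143.7, 2.03-fold higher, close to the floor and to the limit, and it was under 2-fold with median centring, quantile normalization, loess or a floor at the 60th percentile.

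Among the other J proteins grouped under vesicles or other sites, Dnajc13, of endosomes, read 1222 and 773, and 258 and 218 at its other probe set. Dnajc5, the cysteine string protein of exocytic vesicles, read 621 and 797, and its 5 probe sets ranged from 0.31 to 0.89. The 2 genes thus had opposite signs at every measured probe set. Dnajc22 read 194 and 140, with -0.48 and -0.97 at its probe sets. Dnajc4 read 223 and 225 and Dnajc28 158 and 136, and Dnajc27 was at least 1.40-fold higher, with a control signal of 50.7 under the floor.

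Among cytosolic J proteins, Dnajb4, a cofactor of Hsp70, read 413 and 709, 1.72-fold higher, with 0.84 and -0.24 at its other probe sets. Dnajc17, a splicing-associated protein, read 204 and 308 and Dnajb5 121 and 172. Dnaja1, the main class A partner of Hspa8, read 2251 and 1823, with -0.49 at both of its other probe sets, so all 3 readings were lower in the cystic kidney. Dnaja2 (1993 and 2086), Dnajb6 (973 and 904), Dnajc7 (659 and 747), Dnajc8 of the spliceosome (1132 and 1452) and Dnajc9 (301 and 299) were between -0.11 and 0.36 in log2. Dnajb2, Dnajc2, Dnajc21, Dnaja4 and Dnajc24 were between -0.31 and 0.08, and Dnajb8 was at least 1.45-fold lower. Of all measured members, 8 were at least 1.5-fold higher and 7 at least 1.5-fold lower, while 16.4% of all measured genes were higher and 10.8% lower by this limit. The 11 genes not measured were Hspa1l, Hspa12b, Hspb3, Hspb9, Dnajb3, Dnajb7, Dnajb13, Pdia2, Calr3, Dnajc5b and Dnajc5g.

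In the list of heat shock factors and cytosolic co-chaperones, 1 of 22 measured rose and 0 fell at a median of 0.17. Among all measured genes 7.06% rose and 3.78% fell, with a median of 0.09. Hspbp1, which releases nucleotide from Hsp70, rose from 204 to 427. Bag2 and Cryab followed at 0.78 and 0.66, and Fkbp4, a steroid receptor co-chaperone of Hsp90, was lowest, with 622 and 384, ahead of Hikeshi, a nuclear import carrier of Hsp70, at -0.41 and Bag1 at -0.37. The heat shock factors Hsf2 and Hsf4 were not measured, and Hsf1 was not analysed here. In the list of the cytosolic chaperonin and prefoldin none of 14 was past 2-fold, and the median was 0.13, or -0.03 with median centring. Its extremes were Pfdn2, Cct5 and Cct3 at 0.39, 0.38 and 0.30 and Pfdn1, Cct6a and Pfdn5 at -0.51, -0.19 and -0.11.

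In the ER, 24 of 26 members were measured and none passed 2-fold or 1.5-fold. Their log2 ratios ran from -0.31 to 0.50, with 14 above 0 and 10 below. The full range is narrow beside that of the cytosolic members, -1.83 to 1.41, but the interquartile range is not. It was -0.15 to 0.32 for the ER members and -0.19 to 0.22 for the cytosolic members. Under median centring 8 were above 0 and 16 below, with a median of -0.10.

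The lectin chaperones, P4hb, Pdia3 and Hsp90b1 had log2 ratios from -0.31 to 0.05. Calr, calreticulin, a lectin chaperone that binds calcium, read 3912 and 4058, and its 3 probe sets ranged from -0.23 to 0.05. Its membrane-bound relative Canx, calnexin, read 4123 and 3323, with -0.31, -0.11 and -0.11. P4hb, the founding disulfide isomerase, read 3708 and 3519, Pdia3, the isomerase that works with both lectins, 2779 and 2748, and Hsp90b1, the ER Hsp90, 2011 and 2030. Only Canx of these 5 genes had every probe set further than 0.10 from 0.

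A small group of ER genes was higher in the cystic kidney. Hspa5 read 2813 and 3652, 1.30-fold higher, with 0.22 and 0.42 at its other probe sets. Creld2, a target of Atf6, read 378 and 498, Sdf2l1, a partner of Hspa5, 111 and 146, and Pdia5, Pdia4 and Pdia6 had log2 ratios of 0.38, 0.30 and 0.26. Dnajc10, a reductase of misfolded clients, read 844 and 1088, with 0.35 and 0.74 at its other probe sets, and Dnajc14 read 328 and 462. At the brightest probe sets these log2 ratios were between 0.26 and 0.50, against an SD of 0.29 between probe sets of a gene.

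Other ER genes were lower or near 0 at their brightest probe sets. Dnajc3, an ER J protein, read 960 and 777, and its 5 probe sets lay between -0.31 and -0.21. Herpud1, of ER-associated degradation, read 2469 and 2008, with -0.30 and -0.29. These 2 stress targets were thus lower at each measured probe set, while Hspa5 was higher at each of its own. The log2 ratios of the 2 targets are of about the size of the SD of 0.29 between probe sets of a gene. With quantile normalization and loess, Herpud1 was at -0.12 and -0.15, Dnajc3 at -0.27 and -0.26, and Hspa5 at 0.54 under both. Dnajb9, a repressor of the stress sensor Ire1, read 1502 and 1366, Dnajb11 620 and 588 and Hyou1, the nucleotide exchange factor of Hspa5, 730 and 763. The membrane J proteins Dnajb12, Dnajb14, Dnajc1, Dnajc16 and Dnajc18 had log2 ratios from -0.23 to 0.06 at their brightest probe sets. Other measured probe sets gave -0.42 for Dnajb12, 0.02 for Dnajb14 and a bound of 0.51 for Dnajc16. Those of Dnajc1 gave 0.39 and a bound of -0.55, and those of Dnajc18 0.29 and -0.34, so their probe sets disagree. Hspa13 had 0.12, with 0.29 and 0.35 at its other measured probe sets.

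Set against the printed sites, the 7 genes with an ER stress element had log2 ratios from -0.31 for Canx and Dnajc3 to 0.40 for Creld2, with a median of 0.05. The 14 measured ER genes with a window but no match ranged from -0.30 to 0.50, with a median of -0.05. The ranges overlap. Of the genes with a heat shock element, Hspd1 and Hspe1 were at -0.69 and -0.83, and Hsph1 and Dnajb6 at -0.20 and -0.11. All 4 were below 0 at the brightest probe set, as were 42.1% of all measured genes, and Hspd1 and Hspe1 share the matched bases. Dnajb6 was at 0.18 by the median over its probe sets. The 60 measured members with a window but no match had a median of 0.05, from -1.56 to 1.41, so these ranges overlap as well. A link between the element and the signal was not tested.

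All 5 stress transcription factors had higher signals in the cystic kidney and none passed 2-fold. Ddit3 (CHOP), the pro-apoptotic factor downstream of Atf4, read 142 and 226, 1.59-fold higher. Xbp1, whose mRNA is spliced by Ire1, read 2603 and 3907, a log2 ratio of 0.59, and its other probe sets gave 0.54, 0.37 and 1.06. The array values do not separate spliced from unspliced Xbp1. Atf6b read 158 and 224 and Atf4 829 and 1070, with 0.45 at the other measured Atf4 probe set. Atf6, which is cleaved to become active, read 228 and 256, with 0.42 at the next brightest and a bound of -0.38 at the dimmest. All 10 probe sets above both floors were above 0, but 4 of them are of Xbp1, and probe sets of 1 gene are not separate observations. Of all measured genes 57.8% had a log2 ratio above 0. The median was 0.51 and stayed between 0.35 and 0.51 under the alternative settings.

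**Figure D4:**
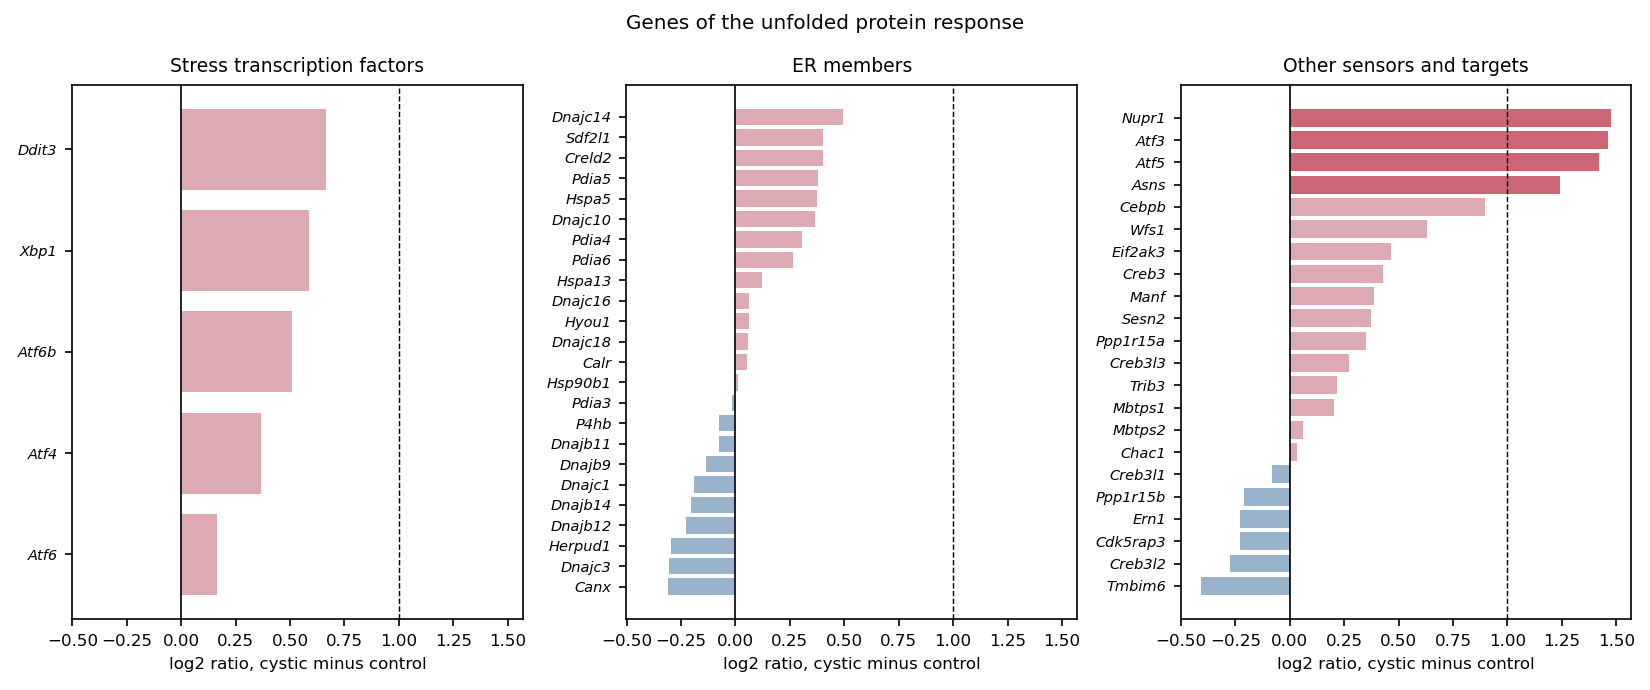
Log2 ratios (cystic minus control) of the stress transcription factors, the ER members and the list of other sensors and targets, with a dashed line at 2-fold. All 5 factors lie between 0.16 and 0.67, the ER members spread around 0, and Nupr1, Atf3, Atf5 and Asns pass the line.

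In the list of other sensors and targets of the unfolded protein response, 4 of 22 measured genes rose and 0 fell at a median of 0.31. The shares over all measured genes were 7.06% and 3.78%, and the median was 0.09. Nupr1, a stress-induced nuclear protein, rose from 135 to 376. Atf3 rose from 82.9 to 229 and Atf5 from 98.5 to 264, and Asns, asparagine synthetase, from 88.7 to 210. The control signals of Atf3, Atf5 and Asns lie not far above the floor of 55.4. Atf3 and Asns are known targets of Atf4. The sensors Eif2ak3 (PERK) and Ern1 (Ire1) had log2 ratios of 0.46 and -0.23, and the Atf4 targets Chac1 and Trib3 0.03 and 0.21, the latter a bound. The lowest in this list were Tmbim6, Creb3l2 and Cdk5rap3, at -0.41, -0.28 and -0.23.

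Plasma cells, which depend on Xbp1, were checked by 8 markers, of which 6 were found. Jchain, Cd79a and Cd79b were under the floor on both arrays, Mzb1 and Ighm had log2 ratios of 0.11 and 0.13, and Sdc1, which epithelia also express, rose from 129 to 499. The summed signal of the 3 measured markers was 410 and 804, and no marker was at 0. The part of such cells in the Xbp1 difference was not tested.

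Genes of ER-associated degradation and of translocation into the ER were near 0 as a list. None of 27 measured was past 2-fold, 13 were above 0 and 14 below, and the median was -0.003, or 0.03 with loess and -0.16 with median centring. The extremes were Ube2j1, Sec63 and Spcs2 at 0.52, 0.48 and 0.37 and Sec62, Edem1 and Ube2g2 at -0.57, -0.48 and -0.28. The list of other folding and glycosylation enzymes of the ER had a median of 0.08 over 35 measured genes, or -0.08 with median centring, with none past 2-fold. Its highest members were Fkbp14 (84.8 and 165), a prolyl isomerase, Tmx3 (226 and 422) and Serpinh1, the collagen chaperone Hsp47 (1193 and 2093). Its lowest were Erp29, Fkbp2 and Sil1, at -0.50, -0.47 and -0.46. The collagen-modifying enzymes Plod3, Plod1, P4ha2 and P4ha1 were between 0.34 and 0.56 and Plod2 was at -0.46.

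Hspg2 read 413 and 470 at its brightest probe set and 146 and 386 at the other, log2 ratios of 0.19 and 1.40, so its probe sets disagree on whether it passed 2-fold. Without it the members' counts past 2-fold were 3 higher and 2 lower, as with it. Over the 47 member genes with at least 2 probe sets above both floors, the SD of log2 ratios between probe sets was 0.25, and over the 4694 such genes of the arrays it was 0.29. This spread comes from the same RNA and says nothing of differences between animals.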

How the data were processed

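Kidney RNA of 1 control and 1 cystic group of mice was measured on 1 array each. The deposited unit is intensity, a linear signal for each probe set that the authors made with MAS5, per the submitters' processing notes. Its version and scaling target are not stated there. The 2% trimmed means of the arrays were 178 and 181, and the deposited scaling was kept.

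From 45101 probe sets 64 control probe sets were left out. Of the rest, 34945 named 1 gene, 932 several and 9160 none in the platform annotation, and symbols were updated by gene identifier through a RefSeq table of GRCm38.p6, which held 34741 of the 34945. Of the probe sets naming a gene alone, that with the greatest mean of its log2 signals was used, with a floor at the 50th percentile of each array. Of 18193 genes, 12014 were measured and 10668 were above both floors. Compartments were assigned by textbook location, and 11 genes, Dnajc4 and Dnajc28 among them, were grouped as vesicle or other site. Statements on mitochondrial members hold for the genes assigned there. Dnajc4 and Dnajc28 had log2 ratios of 0.01 and -0.21, so the shared sign and the median depend on this assignment.

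The members and lists were chosen with earlier results of these data known. The rule for named genes took any member, up to 3 genes of a pathway list furthest in each direction, up to 2 markers per list furthest in the direction of its median, and the X, Y and Invs checks. Slc34a1, Umod, Bag3, Asns, Eif2ak3, Ern1, Chac1, Trib3, the Plod and P4ha genes and markers named beside a count were chosen after their values were seen. No test was possible. The steps were run on simulated arrays with large planted changes in genes well above the floor. Those arrays held no variation between animals, so they do not bear on the small differences reported here. The alternatives were median centring, quantile normalization, loess, no floor, a floor at the 40th or 60th percentile, the median over probe sets, and leaving out shared probe sets or bounds. Shared probe sets were taken by names ending in _s_at, _x_at or _a_at, and whether they match another gene was not checked. A planned grouping by protein C-termini was not analysed here. Python 3.11.15, numpy 2.4.6, pandas 2.3.3 and statsmodels 0.14.6 were used.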

Additional observations from a re-analysis of the deposited data

How the results depend on the processing

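With no floor, 2092 genes were counted as at least 2-fold higher and 1576 as lower, against 848 and 454, and 5 members were counted higher against 3, because genes with signals near background were then counted. The added ones were Calr3 and Dnajc5g. All other counts over all genes or members stayed within 1.5 times. With median centring the median log2 ratio of all genes moved from 0.09 to -0.07, and 609 genes were higher and 672 lower, 47.5% higher against 65.1%. Relative to all genes, the mitochondrial median was -0.77 with the deposited scaling and between -0.77 and -0.53 under the 8 alternatives that cover all genes. All measured genes assigned to the mitochondrion were below 0 under each of these alternatives. The cytosolic median ranged from -0.15 to 0.03 and the ER median from -0.10 to 0.09, so neither has a settled sign. Of 608 gene values under alternatives, 12 moved by more than 0.29, the SD between probe sets, and none past 2-fold changed sign. Without shared probe sets Hspe1 was -0.23, Xbp1 1.06 and Hspb1 had no value. Leaving out Hspg2 was added after the values were seen. No paired analysis was possible because each group has 1 array. Signals near the floor, those of Dnajc25, Hspb2 and Hspb7 among them, limit what can be read.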
